A study of Bos taurus with 16 samples.

Results

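The gain contrast at low intake set 4 high gain-low intake steers against 4 low gain-low intake steers, chosen by their phenotype label alone, and so used 8 of the 16 liver arrays of the series. The steers were crossbred, 11 months old when the trial began, and all ate a high-concentrate diet with wet distillers grains ad libitum for 78 days. Both groups ate less than the trial mean, and they differed in whether they gained more or less than the trial mean. The animals farthest from the mean of gain and intake were taken in each quadrant, and the other 8 arrays came from the steers of high intake. The labels name no treatment and no genetic change that separates the groups. The groups differed in breed composition according to the study's methods, and the part of breed in the differences was not tested.

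The liver turns absorbed propionate and amino acids into glucose, packs fat for export and secretes most plasma proteins through the endoplasmic reticulum and the Golgi. It is also the main source of circulating insulin-like growth factors (IGFs) and of part of the binding proteins that carry them. Among these, IGFBP1 is known to rise in liver during fasting, stress hormone exposure and low insulin, and to fall after feeding. Steers with a similar low intake but a different gain differ in feed efficiency, which is the question that this contrast addresses.

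Each array gave a log2 signal for 26773 transcript clusters, the units into which the array design groups probes of a gene. Hepatocyte markers were high on every array, with albumin (ALB) at 20.84, 20.91, 22.48 and 22.65 in high gain-low intake steers, against 21.22, 21.13, 21.48 and 22.63 in low gain-low intake steers, each in the order of steers 1 to 4. The arrays fell apart by their place in the deposited table. In the first 8 columns, which held high gain-low intake steers 1 and 2 and low gain-low intake steers 1 to 3, array medians were 7.41 to 7.47. In the last 8 columns, which held high gain-low intake steers 3 and 4 and low gain-low intake steer 4, they were 7.16 to 7.23. No label says what this split stands for, and the last 8 columns held only 1 low gain-low intake steer. Differences and medians below are without column position as a block unless the block is named. "The block" means that fit over all 16 arrays and "the 8-array block" the same fit over the low intake arrays alone. Differences within the last 8 columns rest on that 1 steer. Between low intake arrays, Pearson's r over all transcript clusters was 0.968 to 0.982 on the same side of the split and 0.953 to 0.971 on opposite sides.

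Differences between the groups were few. In limma's moderated test 980 of 26773 transcript clusters (3.66%) reached the nominal threshold of the study's methods, an unadjusted p of 0.05. Of these, 457 (1.71%) were higher and 523 (1.95%) were lower in high gain-low intake steers. Evenly spread p-values, with no difference in any cluster, would put 5% at this threshold, and 3.66% is below that. Over all transcript clusters 12694 differences lay above 0 and 14079 below. After Benjamini-Hochberg adjustment over all transcript clusters 0 passed 0.05 in limma, and the lowest adjusted p was 0.313. "Called" below means an unadjusted p of 0.05 or less, and each called gene therefore failed the adjustment. Counts of called list members below stand beside the 3.66% of all transcript clusters. With column position as a block 1494 were called (5.58%), 970 higher (3.62%) and 524 lower (1.96%), and the lowest adjusted p was 0.148. Both fits called 832 in the same direction, 84.9% of the calls without and 55.7% of those with the block. The 8 low intake arrays alone gave 1178 calls (4.4%), 507 higher (1.89%) and 671 lower (2.51%), or with the block 1981 (7.4%), 1204 higher (4.5%) and 777 lower (2.9%). The groups did not overlap in 716 transcript clusters (2.67%), with 339 (1.27%) above and 377 (1.41%) below. A single gene symbol was paired with 278 of the 457 higher and 368 of the 523 lower ones. With clusters below the median level left out, 149 were called higher and 344 lower, so the calls among brighter clusters leaned lower.

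**Figure D1:**
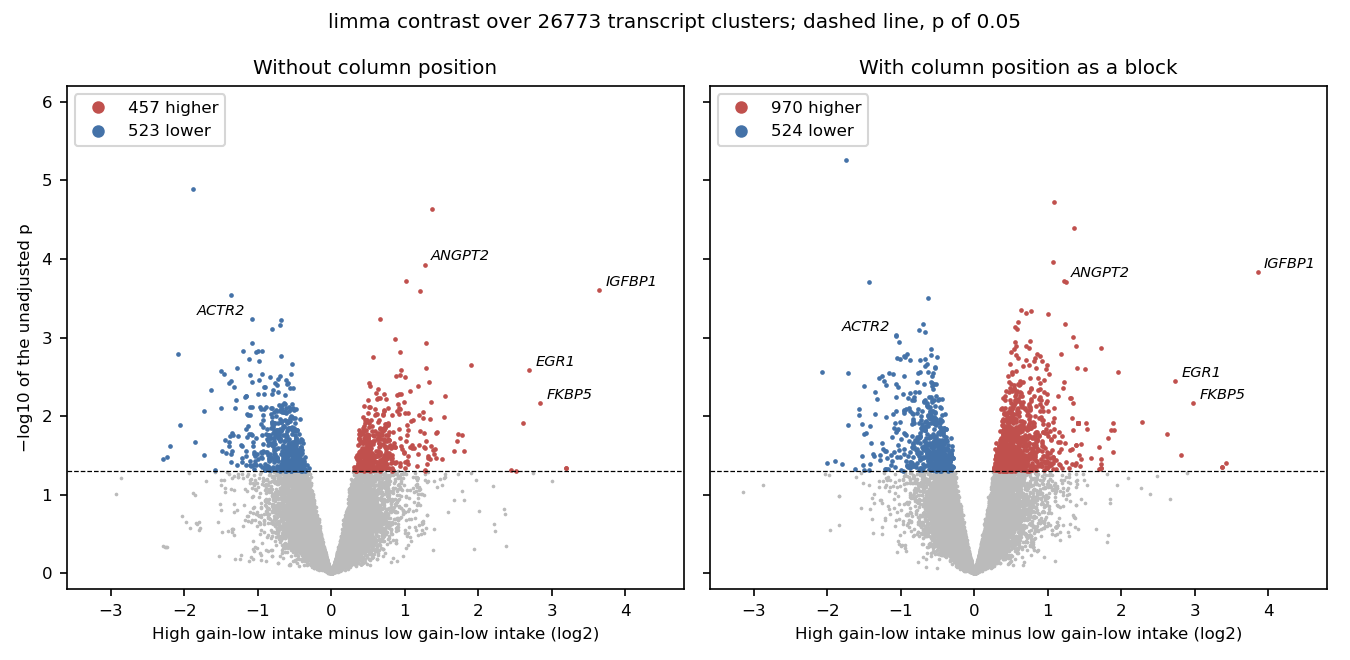
Each point is a transcript cluster, placed by the high gain-low intake minus low gain-low intake difference in log2 signal and by the negative log10 of its unadjusted limma p, without (left) and with (right) column position as a block over 16 arrays. Called clusters are red where higher (457 left, 970 right) and blue where lower (523 left, 524 right), and the dashed line marks p of 0.05.

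IGFBP1, which encodes insulin-like growth factor binding protein 1, had the largest difference among called genes with a symbol and a signal at or above the median level. Its log2 signal was 17.39, 15.68, 13.18 and 15.68 in high gain-low intake steers, against 11.74, 12.69, 12.44 and 10.51 in low gain-low intake steers. All high gain-low intake steers lay above all low gain-low intake steers. The means were 15.48 ± 1.73 in high gain-low intake and 11.84 ± 0.98 in low gain-low intake steers (SD, n = 4 each), a difference of 3.64 ± 0.77 (SE) on the log2 scale or 12.5-fold. The unadjusted limma p was 0.000251 and the adjusted p 0.999. With the block the difference was 3.86 ± 0.76 (SE). It was 4.25 within the first 8 columns and 3.92 within the last 8, and it stayed called without each of the 8 steers in turn. The study also assayed this transcript by quantitative PCR. In that assay it found none of IGFBP1, NCAPG and NAT1 significantly associated with the phenotypes. The p-values of that assay came from the study's model of all 4 groups, not from this contrast alone. For each of these genes the study also listed the same pair of groups, and the assay went in the array's direction. The primers of these genes are printed 5′ to 3′, and their targets were not checked here. Those assay values were not analysed here.
IGFBP1 forward: gagagcttgagggctcttga
IGFBP1 reverse: ctccctggctaatctgtcca
NCAPG forward: aggatacaggcagttcttgctc
NCAPG reverse: ataacactgcccgcctaactt
NAT1 forward: ttggaaaagaccctgatgct
NAT1 reverse: ttgtccatcgcattgatgat

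In the wider growth hormone and IGF group, 1 of 19 measured genes was called higher and 1 lower. The lower one was IGFALS, the acid-labile subunit that keeps IGFs in a long-lived complex in blood. It read 12.10, 12.20, 11.52 and 10.86 in high gain-low intake steers, against 12.74, 12.85, 12.69 and 12.25 in low gain-low intake steers. These groups did not overlap. The limma call was lost with column position as a block, where the unadjusted p was 0.0537. It was also lost without high gain-low intake steers 3 and 4 or low gain-low intake steers 1, 2 and 3 (p up to 0.143). Here and below, each steer listed was left out on its own, and the p given is the highest unadjusted limma p. IGF2 averaged 17.28 ± 0.64 in high gain-low intake and 17.81 ± 0.59 in low gain-low intake steers, and the growth hormone receptor GHR 16.90 ± 1.23 in high gain-low intake and 17.71 ± 0.74 in low gain-low intake steers (SD, n = 4 each), neither of them called. The median difference over the 19 genes was -0.21, beside -0.02 over all transcript clusters, and with the block -0.09 beside 0.04. Without low gain-low intake steer 4, 2 of the group were called higher and 4 lower, and without high gain-low intake steer 1, 2 higher and 3 lower. In the insulin signaling group only IRS2, an adaptor of the insulin receptor, was called among 18 genes (5.56%, beside 3.66% over all transcript clusters). IRS2 had a difference of 0.69 ± 0.26 (SE). Its call was lost with the 8-array block, at an unadjusted limma p of 0.0579, and without high gain-low intake steer 4 or low gain-low intake steer 2 (p up to 0.0711).

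Among clusters with a single gene symbol whose higher group mean reached the median level of all clusters, ANGPT2 had the smallest p of those higher in high gain-low intake steers. ANGPT2, GNG8, PSPH and MIR2284B here, and CNN1 and CCNE2 below, reached that level in the high gain-low intake mean alone, so the limit itself favoured genes with a difference. ANGPT2 encodes angiopoietin 2, a ligand of the endothelial receptor TIE2 that loosens vessels. Its signal was 7.37, 7.66, 6.88 and 8.26 in high gain-low intake steers, against 6.29, 6.12, 6.28 and 6.40 in low gain-low intake steers. The low gain-low intake steers lay within a narrow band below all others, and the difference was 1.27 ± 0.25 (SE) at an unadjusted limma p of 0.000118, and 1.23 ± 0.25 with the block. In the angiopoietin and VEGF group, 2 of 24 genes were called higher and 0 lower. The other was DLL4, a Notch ligand of endothelium, at 0.45 ± 0.21, which lost its call with the 8-array block (unadjusted limma p of 0.0612) and without high gain-low intake steers 1, 2 and 4 or low gain-low intake steers 1, 2 and 3 (p up to 0.157). KIAA2026 read 11.99, 12.31, 11.90 and 12.51 in high gain-low intake steers, against 11.57, 10.93, 11.61 and 10.86 in low gain-low intake steers, again without overlap. PSPH, which makes serine from phosphoserine, was 0.64 ± 0.19 higher, and FNIP1, a partner of folliculin in nutrient sensing, 0.74 ± 0.23 higher (SE), both with no overlap of the groups. OGN (osteoglycin, a matrix proteoglycan), MNS1 (a flagellar and meiotic protein) and GNG8 (a G protein gamma subunit) were higher by 0.91, 0.62 and 0.88, also without overlap. TLE4, a transcriptional corepressor, EIF1, a factor that selects start codons, and the microRNA gene MIR2284B were higher by 1.07, 1.36 and 0.70, with overlap. EIF1 averaged 11.27 ± 0.85 in high gain-low intake and 9.91 ± 0.65 in low gain-low intake steers (SD, n = 4 each), and high gain-low intake steer 1 lay below 2 of the low gain-low intake steers.

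**Figure D2:**
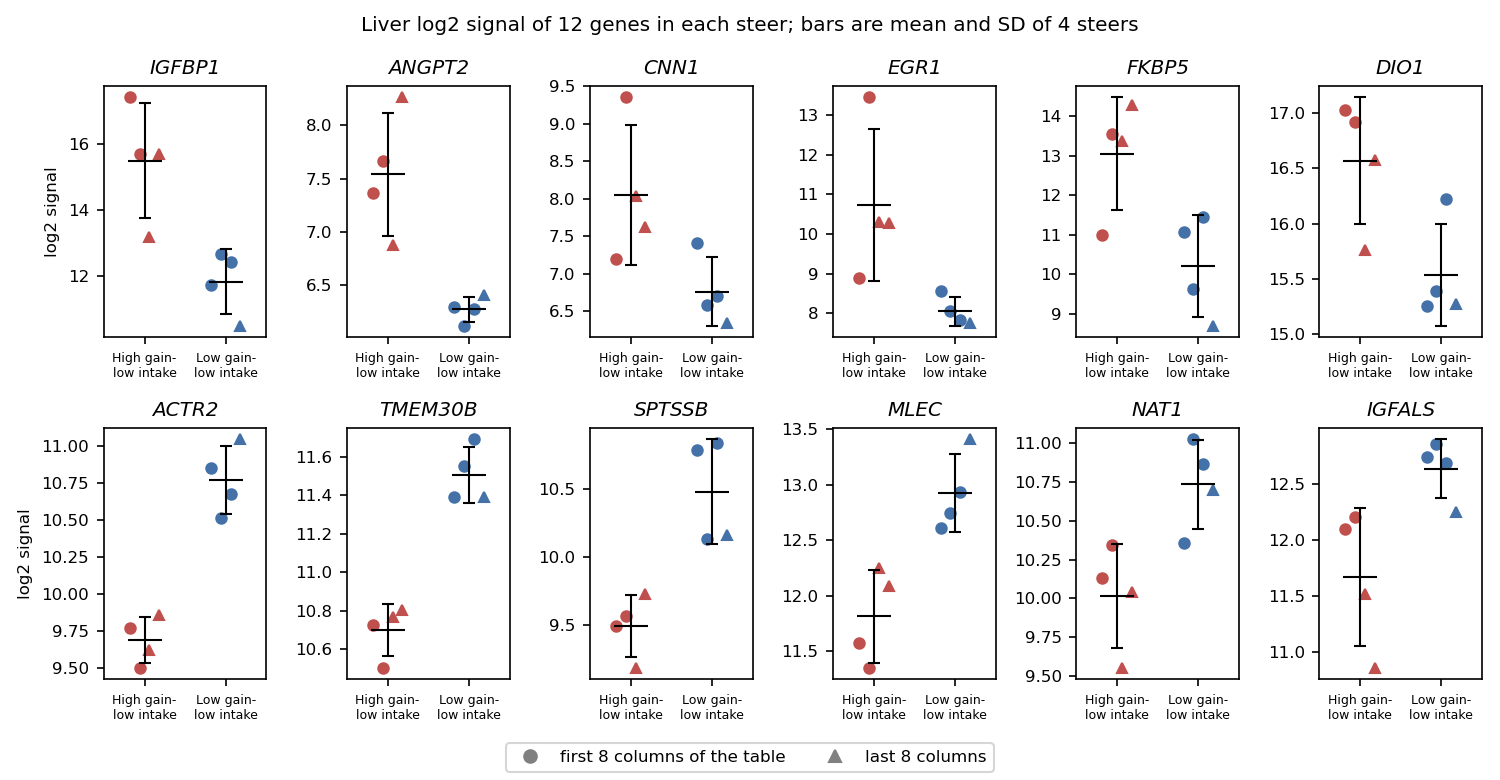
Log2 signal of 12 named genes in each steer, high gain-low intake steers at the left and low gain-low intake steers at the right of each panel. Circles are arrays in the first 8 columns of the table and triangles those in the last 8, and black bars are the mean and SD of 4 steers. IGFBP1, ANGPT2 and EGR1 had no overlap with all high gain-low intake steers above, and ACTR2, TMEM30B, SPTSSB, MLEC, NAT1 and IGFALS had none with all of them below.

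Immediate early genes, which growth factors and stress switch on within minutes, leaned higher in high gain-low intake livers. Of 31 measured, 5 were called higher and 0 lower, a share of 16.1% beside 3.66% over all transcript clusters, and 27 differences lay above 0 with a median of 0.45. EGR1, a zinc finger transcription factor, read 8.88, 13.45, 10.32 and 10.29 in high gain-low intake steers, against 8.55, 8.06, 7.83 and 7.74 in low gain-low intake steers. The groups did not overlap, and high gain-low intake steer 2 was far above the others. MYC, a growth regulator, read 6.51, 8.96, 7.92 and 8.12 in high gain-low intake steers, against 6.78, 6.40, 6.77 and 6.18 in low gain-low intake steers. High gain-low intake steer 1 lay among the low gain-low intake values and the other 3 above them. BTG2, an anti-proliferative factor, was 1.39 ± 0.57 (SE) higher, the mRNA decay factor ZFP36 1.01 ± 0.39 and FOS, part of the AP-1 factor, 0.98 ± 0.41. With column position as a block 8 were called higher and 0 lower, where CCN2 (a difference of 0.81 without the block), JUNB (0.88) and JUN (1.55) joined the 5. The number called higher was 3 without high gain-low intake steer 2 and likewise without steer 3 of that group. It was 9 without steer 1 of either group. EGR1 and MYC stayed called without each steer in turn. BTG2 lost its call without high gain-low intake steers 2, 3 and 4 or low gain-low intake steer 4 (p up to 0.112), and ZFP36 without high gain-low intake steer 3 or low gain-low intake steer 4 (p up to 0.067). FOS, JUN, JUNB and CCN2 were named after their values were seen.

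Heat shock proteins and their co-chaperones refold damaged proteins and are induced by heat and other stress. Of 36 measured, 5 were called higher and 1 lower (16.7%), with a median difference of 0.38. With the block 4 were called higher and 1 lower, with a median of 0.36, and DNAJB1 lost its call at an unadjusted limma p of 0.0578. With the 8-array block 1 was called higher and 1 lower, and HSP90AA1, DNAJB4 and DNAJB2 were not called, at unadjusted limma p-values of 0.0739, 0.0713 and 0.0825. The 5 called without a block were the chaperone HSP90AA1 and the HSP70 partners DNAJA4, DNAJB1, DNAJB2 and DNAJB4, and the lower one was DNAJC5, a co-chaperone of synaptic vesicles. HSP90AA1 read 14.89, 18.25, 16.07 and 18.11 in high gain-low intake steers, against 15.58, 15.26, 15.71 and 14.75 in low gain-low intake steers. High gain-low intake steers 2 and 4 stood well above the rest, and steer 1 of that group was below 3 low gain-low intake steers. DNAJB4 followed a like order at 9.48, 11.96, 11.52 and 12.92 in high gain-low intake steers, against 11.28, 8.91, 9.69 and 9.10 in low gain-low intake steers. Its difference was 0.76 within the first 8 columns and 3.12 within the last 8, and the list's median 0.15 and 0.75. The number called higher was 14 without high gain-low intake steer 1 and 12 without low gain-low intake steer 1. It was 0 without high gain-low intake steer 4, 2 without high gain-low intake steer 2, 1 without low gain-low intake steer 2 or 4, and 3 without low gain-low intake steer 3. DNAJB1 (2.45), HSPH1 (2.74) and BAG3 (2.19) were named after their values were seen, and the last 2 were not called. At high intake the same list had a median gain difference of 0.42, so its lean was not particular to low intake. RNA integrity varied over the series and is not given per steer, and its part in these values was not tested.

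FKBP5, a glucocorticoid-induced co-chaperone of steroid receptors, read 10.99, 13.56, 13.38 and 14.28 in high gain-low intake steers, against 11.07, 9.61, 11.45 and 8.69 in low gain-low intake steers. High gain-low intake steer 1 lay among the low gain-low intake values, while the other 3 steers of its group were above all of them. The difference was 2.84 ± 0.91 (SE) at an unadjusted limma p of 0.00676, at 1.56 within the first 8 columns and 5.14 within the last. At high intake the gain difference of FKBP5 was 0.96 ± 0.91 (SE) and was not called. ZFAND2A, a heat- and arsenite-inducible zinc finger gene, read 8.96, 11.34, 10.12 and 14.60 in high gain-low intake steers, against 10.22, 8.50, 8.43 and 7.46 in low gain-low intake steers, with high gain-low intake steer 4 far above the rest. Both kept their calls without each steer in turn and with the block, but ZFAND2A lost its own with the 8-array block, at an unadjusted limma p of 0.0646. MT2A, a metallothionein that binds zinc, read 14.11, 16.40, 17.71 and 13.22 in high gain-low intake steers, against 13.21, 13.19, 14.95 and 10.04 in low gain-low intake steers, a difference of 2.51 ± 1.18 (SE) at an unadjusted limma p of 0.0497. Its call was lost without high gain-low intake steers 2 and 3 or low gain-low intake steers 1, 2 and 4 (p up to 0.191).

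Of 17 smooth muscle markers, 4 were called higher and 0 lower (23.5%), 5 higher with the block and 3 higher with the 8-array block. As a set the markers were mixed, since 10 differences lay above 0 and 7 below, with a median of 0.14. This median turned negative, to -0.12, once low gain-low intake steer 4 was dropped. For the gain contrast at high intake, the same markers had a median of 0.16. CNN1 (calponin 1) read 7.19, 9.35, 8.03 and 7.62 in high gain-low intake steers, against 7.41, 6.58, 6.70 and 6.35 in low gain-low intake steers. Low gain-low intake steer 1 alone overlapped the high gain-low intake range, and the call held without each steer in turn. TAGLN, TPM1 and FLNA, which encode transgelin, tropomyosin 1 and filamin A and were named after their values were seen, were higher by 1.05, 0.77 and 0.64. The markers with the highest signals were not called: CALD1 averaged 16.02 ± 0.50 in high gain-low intake and 16.11 ± 0.36 in low gain-low intake steers, and MYLK 12.58 ± 0.28 in high gain-low intake and 12.65 ± 0.64 in low gain-low intake steers (SD, n = 4 each). The mean over the 17 markers was 8.98 to 9.79 in high gain-low intake and 8.59 to 9.37 in low gain-low intake steers. The number called higher was 1 without high gain-low intake steer 2 or low gain-low intake steer 4. It was 2 with either high gain-low intake steer 4 or low gain-low intake steer 1 left out. In whole liver, fewer cells of a type and less RNA per cell cannot be told apart.

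The other marker lists held few calls. Without the block, hepatocyte, Kupffer cell, sinusoidal and vascular endothelial, stellate, bile duct, B cell, neutrophil, blood and fat cell markers had 0 called members, and T and NK cell markers 1 of 27, the cytotoxic granule protease GZMB, higher by 0.71 and named after its value was seen. With the block 2 of 16 neutrophil markers were called higher, S100A12 and CAMP, and 1 of 11 sinusoidal markers, CLEC1B, and these too were named after their values were seen. Of 21 hepatocyte markers, 7 differences lay above 0, with a median of -0.06, or -0.16 with the block. Of 16 Kupffer cell and macrophage markers, 3 lay above 0, with a median of -0.50, and their mean was 9.11 to 10.66 in high gain-low intake and 9.90 to 10.77 in low gain-low intake steers. The median was -0.29 with the block. Leaving out steer 3 gave -0.31 where it was the high gain-low intake one and -0.27 where it was the low gain-low intake one. The 8 low intake arrays alone called 4 of them lower, or 2 with the 8-array block. Without high gain-low intake steer 1, 3 of them were called lower, and without steer 4 of that group 1. C1QB, a complement gene of these cells, read 16.01, 14.51, 12.28 and 13.81 in high gain-low intake steers, against 16.22, 15.22, 17.31 and 15.28 in low gain-low intake steers. High gain-low intake steer 3 was the lowest and the groups overlapped. CD5L, the marker of this list with the highest signal, was not called. It averaged 15.73 ± 0.81 in high gain-low intake and 16.02 ± 0.44 in low gain-low intake steers (SD, n = 4 each). Its difference was -0.29, or -0.04 with the block.

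**Figure D3:**
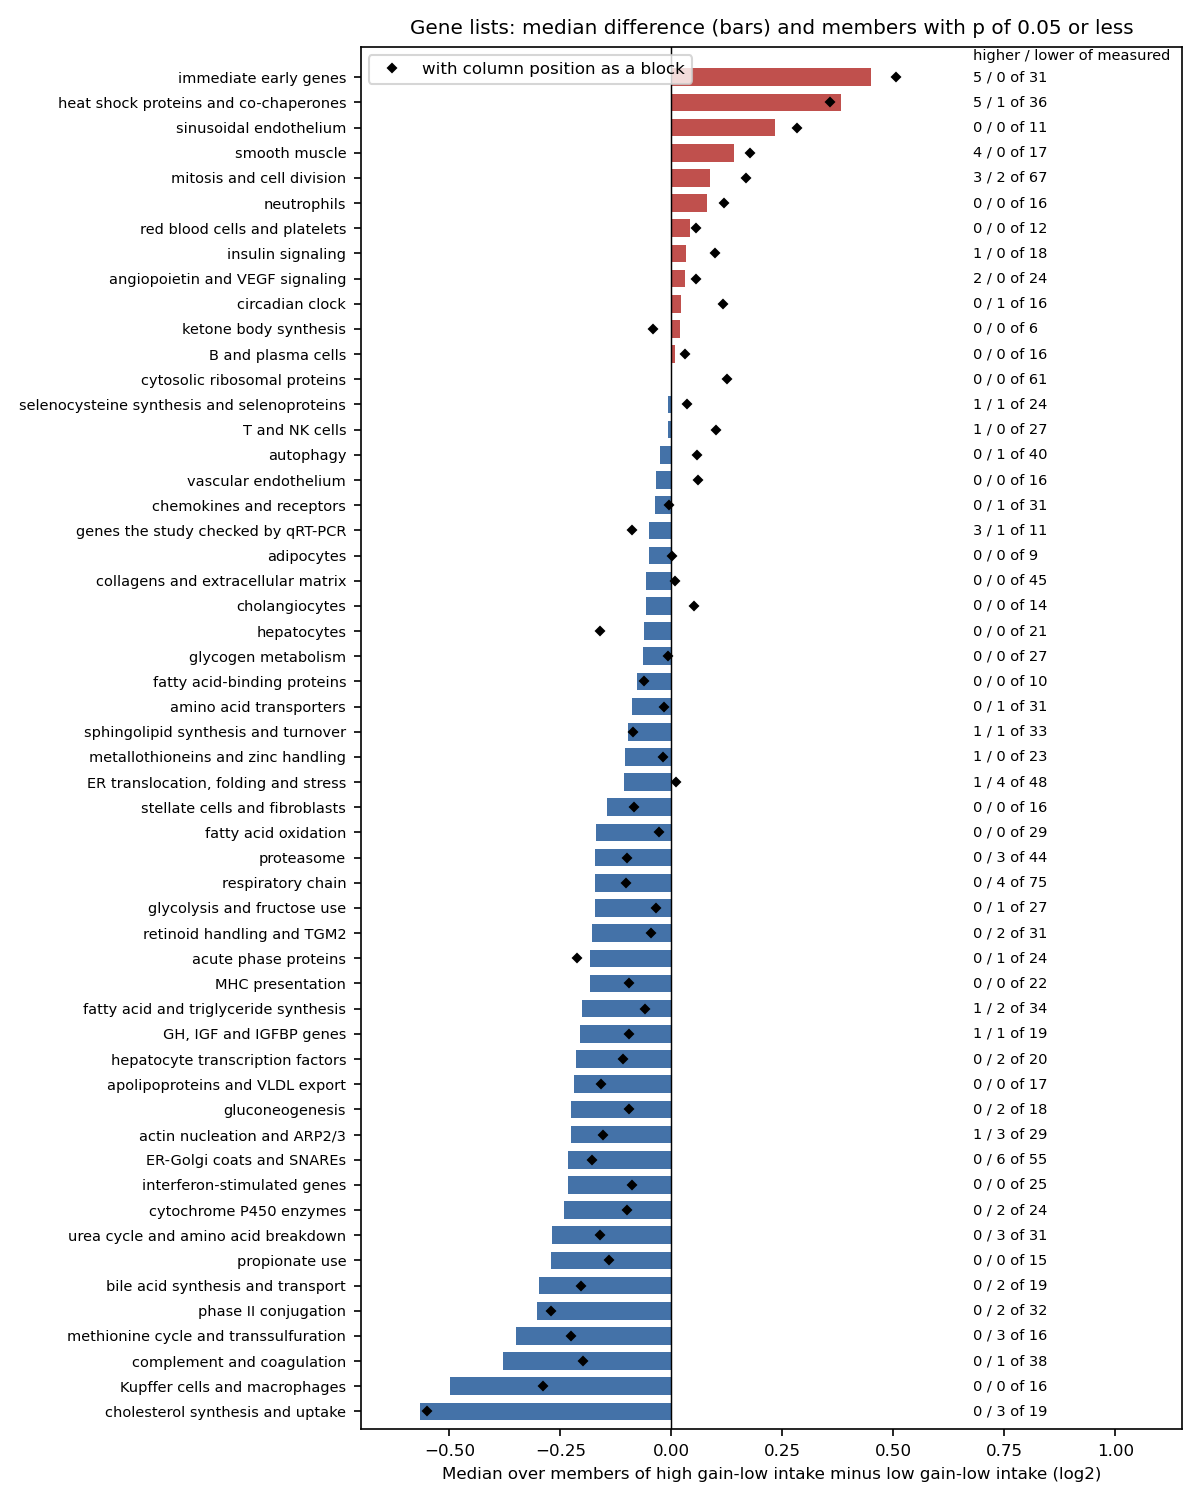
Median over the measured members of each gene list of the high gain-low intake minus low gain-low intake difference in log2 signal (bars) and the same with column position as a block over 16 arrays (diamonds). The numbers at the right give members called higher and lower of those measured. Immediate early genes had the highest median (0.45) and cholesterol synthesis genes the lowest (-0.57).

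By the same limit on level, ACTR2 had the smallest p of those lower. It encodes a subunit of the ARP2/3 complex, which nucleates branched actin. Its signal was 9.77, 9.50, 9.62 and 9.86 in high gain-low intake steers, against 10.85, 10.51, 10.67 and 11.04 in low gain-low intake steers. The groups were far apart for their spread, with a difference of -1.08 ± 0.25 (SE) at an unadjusted limma p of 0.000587, -1.06 ± 0.26 with the block, and -1.04 and -1.30 within the first and last 8 columns. Of 29 genes of actin nucleation, 3 were called lower and 1 higher (13.8%), with a median of -0.23, and without low gain-low intake steer 3, 5 were called lower. With the block 4 were called lower and 2 higher, with a median of -0.15. The list did not keep its sign over the column split, with a median of -0.25 within the first 8 columns and 0.25 within the last 8. ARPC1A, another ARP2/3 subunit, had a difference of -0.65 with no overlap, and ACTR1B, of the dynactin complex, one of -0.47. PFN2, a profilin that feeds actin monomers, was 0.42 higher with no overlap, at a signal below the median level in both groups. ARPC1A lost its call without high gain-low intake steer 4 or low gain-low intake steers 2 and 4 (p up to 0.104). PFN2 lost its own without high gain-low intake steer 2 or low gain-low intake steer 4 (p up to 0.0828), and ACTR1B without high gain-low intake steer 4 (p up to 0.0589).

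The 15 lower genes with the smallest p included TMEM30B, MLEC and SPTSSB. TMEM30B, a subunit of lipid flippases, read 10.72, 10.50, 10.77 and 10.81 in high gain-low intake steers, against 11.39, 11.55, 11.69 and 11.39 in low gain-low intake steers. MLEC, malectin, an endoplasmic reticulum lectin that binds glucosylated glycans, read 11.57, 11.35, 12.25 and 12.09 in high gain-low intake steers, against 12.61, 12.74, 12.94 and 13.41 in low gain-low intake steers. SPTSSB, a small subunit that sets the activity of serine palmitoyltransferase in sphingolipid synthesis, read 9.49, 9.56, 9.18 and 9.73 in high gain-low intake steers, against 10.79, 10.13, 10.84 and 10.16 in low gain-low intake steers. STXBP6, a binder of SNARE proteins, had a difference of -1.03, SLC35D2, a Golgi nucleotide sugar carrier, of -0.68, and TMEM168, a membrane protein, of -0.68. None of these 6 genes overlapped between the groups. The same held for MRPS14 (a mitochondrial ribosomal protein, -0.54), RANBP1 (a regulator of nuclear transport, -0.70), NR2C1 (an orphan nuclear receptor, -0.83), DPH6 (an enzyme of diphthamide synthesis, -0.72) and LOC509118, which reached the limit on level in the low gain-low intake mean alone. RANBP1 is measured by 2 transcript clusters, and the value is that of the cluster with the higher signal. All 15 genes of this set, like the 15 higher ones, kept their calls in both block fits and without each steer in turn. Both sets were chosen for the smallest p on these same arrays, so this is not independent evidence. Of the genes named for the largest difference, 4 of 5 higher and 0 of 5 lower kept the call without each steer.

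Both lists of the secretory pathway held more genes called lower than higher, but the median of one turned with the block. Of 55 genes of ER-Golgi coats and SNAREs, 6 were called lower and 0 higher (10.9%), and 5 differences lay above 0. With the block 4 were called lower and 1 higher. KDELR2, a receptor that returns escaped proteins to the endoplasmic reticulum, read 13.32, 13.52, 13.14 and 13.60 in high gain-low intake steers, against 13.75, 14.11, 14.00 and 14.03 in low gain-low intake steers, without overlap. COPZ1, a COPI coat subunit, and SEC24D, a COPII cargo adaptor, had differences of -0.61 and -0.69. Of 48 genes of ER translocation, folding and stress, 4 were called lower and 1 higher (10.4%). The 4 act in bringing proteins to and through the membrane, with SEC61B and SEC61A1 (-0.83) in the channel, SRP72 (-0.55) in the signal recognition particle and SSR1 (-0.57) beside the channel. SEC61B read 10.22, 10.42, 10.08 and 10.30 in high gain-low intake steers, against 10.90, 11.23, 10.88 and 10.53 in low gain-low intake steers, without overlap. The single higher gene, DDIT3 (CHOP, a stress-induced transcription factor), was 1.13 higher and was named after its value was seen. The medians of the ER-Golgi and ER lists were -0.23 and -0.11, -0.18 and 0.0095 with the block, -0.27 and -0.36 within the first 8 columns, and 0.01 and 0.24 within the last 8. The number called lower in the ER-Golgi list was 2 without high gain-low intake steer 2 and 3 without low gain-low intake steer 1 or 2. In the ER list it was 2 without high gain-low intake steer 3. COPZ1 lost its call with the 8-array block (unadjusted limma p of 0.061) and without high gain-low intake steers 2 and 3 or low gain-low intake steers 1, 2 and 3 (p up to 0.119). SEC24D lost its own with the block (unadjusted limma p of 0.0561) and without high gain-low intake steers 1, 2 and 3 or low gain-low intake steers 1 and 2 (p up to 0.153). SEC61A1 lost its call without high gain-low intake steer 3 (p up to 0.0589), SSR1 without high gain-low intake steer 3 or low gain-low intake steer 4 (p up to 0.0582) and SRP72 without low gain-low intake steer 2 (p up to 0.0503).

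**Figure D4:**
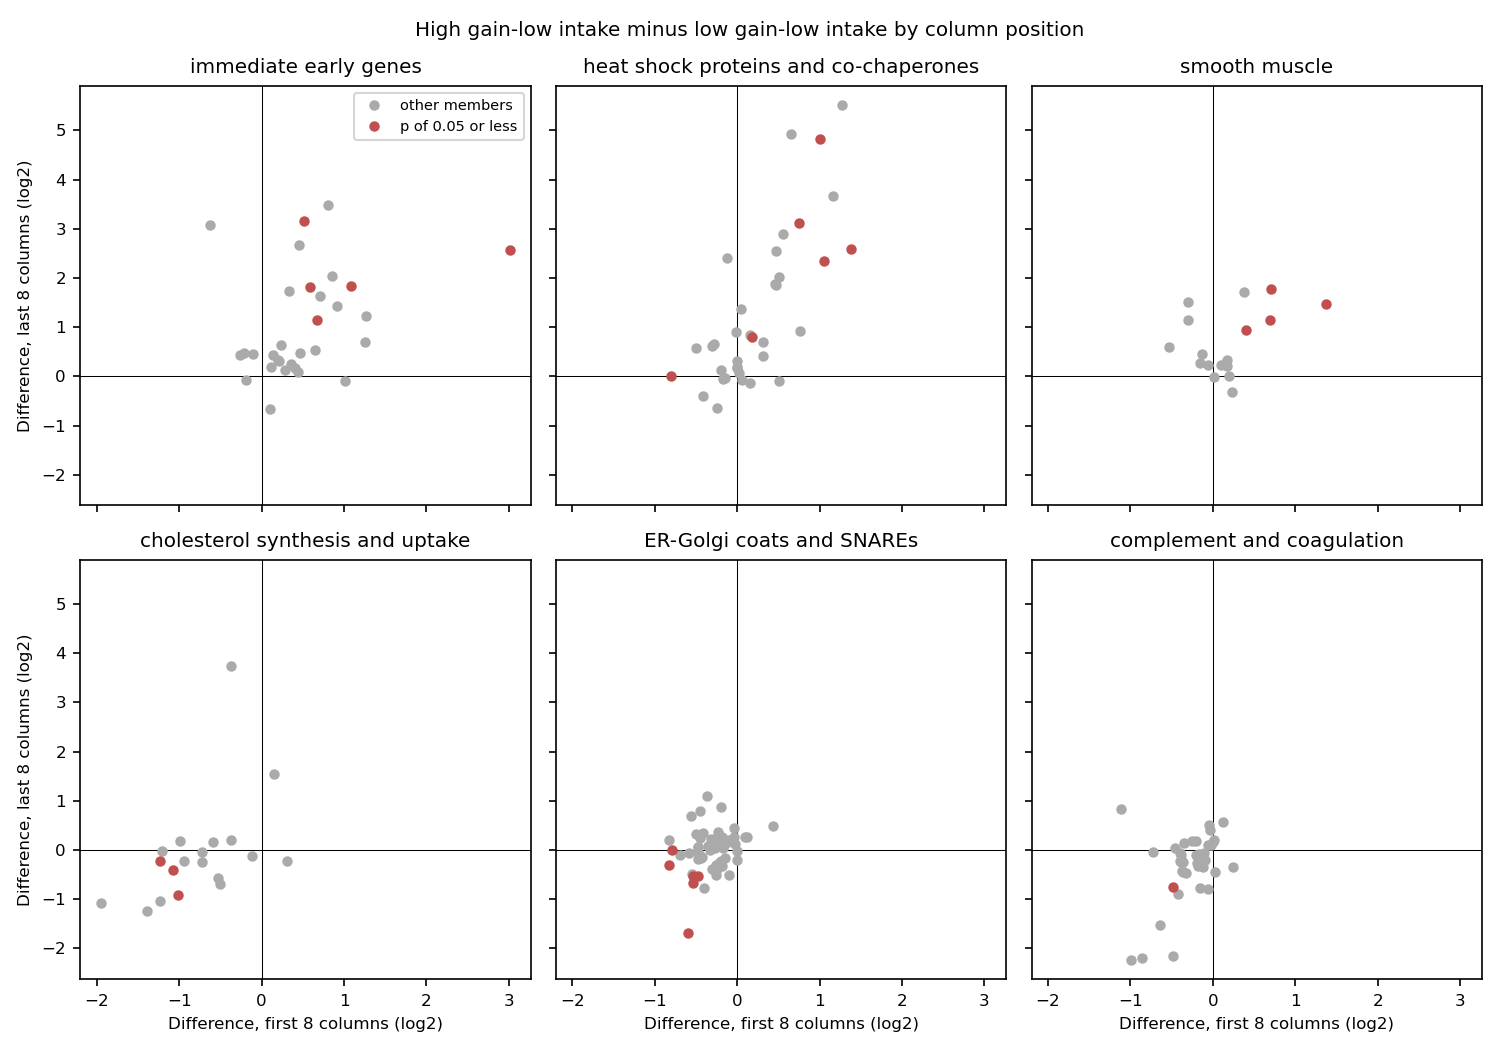
High gain-low intake minus low gain-low intake difference in log2 signal of each member of 6 gene lists within the first 8 columns of the table (x axis) and within the last 8 (y axis, which rests on 1 low gain-low intake steer). Red points are called members. Heat shock genes spread along the y axis, where their median was 0.75 against 0.15 on the x axis, and EGR1 is the immediate early gene at the far right (3.02 and 2.56).

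Cholesterol synthesis and uptake had the lowest median of all lists, -0.57 over 19 genes, with 3 called lower and 0 higher (15.8%). The 3 were sterol pathway enzymes, MSMO1 (-0.90), IDI1 (-0.94) and NSDHL (-1.03). MSMO1 read 17.42, 17.14, 17.35 and 17.91 in high gain-low intake steers, against 17.86, 19.07, 17.95 and 18.54 in low gain-low intake steers. Low gain-low intake steer 2 was the highest in all 3 genes, with 16.28 for IDI1 and 15.54 for NSDHL. Without it 0 were called lower and 1 higher. Without high gain-low intake steer 3, 0 were called in either direction, without high gain-low intake steer 2, 1 was called lower, and without high gain-low intake steer 4, 7 were. With the block the median was -0.55, and IDI1 and NSDHL lost their calls, each at an unadjusted limma p of 0.0626. DHCR7 (-1.33 without the block) joined MSMO1 among the called lower genes and PMVK (0.54) was called higher, both sterol pathway enzymes named after their values were seen. At high intake the same list had a median gain difference of 0.33.

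Of 18 genes of gluconeogenesis, 2 were called lower and 0 higher (11.1%), and 4 differences lay above 0, with a median of -0.23, or -0.09 with the block. The 2 were SLC25A11, the mitochondrial carrier of 2-oxoglutarate and malate (-0.54 ± 0.22, SE), and LDHA, a lactate dehydrogenase subunit (-0.58 ± 0.26). SLC25A11 lost its call without high gain-low intake steers 1, 2 and 4 or low gain-low intake steers 1 and 2 (p up to 0.0964). LDHA lost its own with the block, at an unadjusted limma p of 0.0535, and without high gain-low intake steers 2, 3 and 4 or low gain-low intake steers 2, 3 and 4 (p up to 0.11). G6PC1, which releases glucose, averaged 16.56 ± 0.67 in high gain-low intake and 17.22 ± 0.87 in low gain-low intake steers, and FBP1, which acts before it, 15.86 ± 0.99 in high gain-low intake and 16.31 ± 0.80 in low gain-low intake steers (SD, n = 4 each). Propionate use (15 genes), glycogen metabolism (27) and fatty acid oxidation (29) had 0 called members, at medians of -0.27, -0.06 and -0.17, or -0.14, -0.0078 and -0.03 with the block. Of the propionate genes 1 difference lay above 0. PYGL, the liver glycogen phosphorylase, read 18.43, 18.48, 17.91 and 18.41 in high gain-low intake steers, against 18.96, 18.72, 18.79 and 18.01 in low gain-low intake steers. Its groups overlapped.

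In fat synthesis 2 of 34 genes were called lower and 1 higher. MOGAT1 and GPAM, acyltransferases of triglyceride synthesis, were the lower ones, and ELOVL1, which lengthens very long fatty acids, was 0.62 higher. MOGAT1 averaged 12.25 ± 0.66 in high gain-low intake and 13.27 ± 0.30 in low gain-low intake steers (SD, n = 4 each), with overlap between high gain-low intake steer 3 and low gain-low intake steer 4. GPAM read 11.72, 10.90, 11.23 and 10.72 in high gain-low intake steers, against 11.53, 12.76, 11.69 and 12.59 in low gain-low intake steers, where high gain-low intake steer 1 overlapped. MOGAT1 lost its call without high gain-low intake steer 4 (p up to 0.0792), ELOVL1 without high gain-low intake steers 2 and 4 or low gain-low intake steer 4 (p up to 0.206) and GPAM without high gain-low intake steers 2 and 4 or low gain-low intake steers 2 and 4 (p up to 0.107). GPAM also lost it with column position as a block, at an unadjusted limma p of 0.0523. Bile acid genes had 2 of 19 called lower and 0 higher. SLC51B, a subunit of the basolateral bile acid exporter, read 9.87, 9.56, 9.25 and 9.33 in high gain-low intake steers, against 10.13, 11.68, 10.65 and 9.89 in low gain-low intake steers, without overlap. ABCB11, the canalicular bile salt pump, had a difference of -1.04 and lost its call with the block, at an unadjusted limma p of 0.0623, and without high gain-low intake steers 2 and 4 or low gain-low intake steers 1, 2, 3 and 4 (p up to 0.161). In sphingolipid metabolism SPTSSB was the called lower gene of 33, and SPHK1, a sphingosine kinase, the called higher one at 0.48, without overlap. The signal of SPHK1 lay below the median level in both groups. SPHK1 lost its call without high gain-low intake steers 1 and 2 or low gain-low intake steers 1 and 4 (p up to 0.099).

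Of 16 genes of the methionine cycle and transsulfuration, 3 were called lower and 0 higher (18.8%), and 2 lower and 0 higher with the block. The list's median was -0.35, or -0.23 with the block. It was -0.42 within the first 8 columns and 0.04 within the last 8. CSAD, which makes the taurine precursor hypotaurine, read 8.26, 8.93, 8.69 and 9.33 in high gain-low intake steers, against 9.91, 11.17, 10.59 and 8.99 in low gain-low intake steers. Its difference of -1.36 was -1.96 in the first 8 columns and 0.02 in the last 8. GCLM, of glutathione synthesis, had a difference of -0.40, and MTR, methionine synthase, of -0.55. GCLM lost its call with the 8-array block (unadjusted limma p of 0.063) and without high gain-low intake steers 2 and 4 or low gain-low intake steers 1, 2 and 3 (p up to 0.146). MTR lost its own with the block (unadjusted limma p of 0.0691) and without high gain-low intake steers 1, 2, 3 and 4 or low gain-low intake steers 1, 2 and 3 (p up to 0.107). Of 31 genes of the urea cycle and amino acid breakdown, 3 were called lower and 0 higher (9.68%). They were GOT1, the cytosolic aspartate aminotransferase, KYNU of tryptophan breakdown (-0.76) and the aspartate-glutamate carrier SLC25A13 (-0.61). GOT1 read 12.09, 12.08, 12.95 and 12.88 in high gain-low intake steers, against 13.10, 14.56, 14.12 and 13.27 in low gain-low intake steers, without overlap. It lost its call without high gain-low intake steer 2 or low gain-low intake steer 2 (p up to 0.066), KYNU without high gain-low intake steers 2, 3 and 4 or low gain-low intake steers 2 and 4 (p up to 0.14) and SLC25A13 without high gain-low intake steers 2, 3 and 4 or low gain-low intake steers 1 and 2 (p up to 0.0965). SLC25A13 was also not called with the block, at an unadjusted limma p of 0.0501. SLC38A7, a glutamine transporter, was the single called gene of 31 amino acid transporters (3.23%, beside 3.66% over all transcript clusters). It read 7.94, 7.76, 7.37 and 7.62 in high gain-low intake steers, against 8.19, 8.26, 8.39 and 8.34 in low gain-low intake steers, without overlap.

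Of 44 proteasome genes 3 were called lower and 0 higher (6.82%, beside 3.66% over all transcript clusters). They were the assembly chaperone PSMD5 (-0.90), the inhibitor PSMF1 (-0.92) and the core subunit PSMA5 (-0.33), all without overlap. PSMD5 and PSMF1 kept their calls without each steer, and PSMA5 lost its own with the 8-array block (unadjusted limma p of 0.0507) and without high gain-low intake steers 1 and 2 or low gain-low intake steers 1, 2 and 3 (p up to 0.114). The number called lower was 5 without high gain-low intake steer 1 or low gain-low intake steer 4. The median of the proteasome list was -0.17, or -0.10 with the block. It was -0.19 within the first 8 columns and 0.10 within the last 8. Of 75 respiratory chain genes, 4 were called lower and 0 higher (5.33%), a share near the 3.66% over all transcript clusters. They were ATP5PO (-0.47) and ATP5MC3 (-0.62) of ATP synthase and NDUFA7 (-0.76) and NDUFC1 (-0.45) of complex I. Of the 75 differences 10 lay above 0, beside 12694 of 26773 over all transcript clusters. The median of the respiratory chain list was -0.17, or -0.10 with the block. It was -0.22 within the first 8 columns and 0.04 within the last 8. NDUFC1 lost its call with the 8-array block, at an unadjusted limma p of 0.0571. With low gain-low intake steer 4 left out, 9 were called lower, and leaving out steer 3 of that group gave 1. It was 2 with either high gain-low intake steer 4 or low gain-low intake steer 2 left out. The transcription factor genes ONECUT1 and PROX1, which shape hepatocytes, were the called lower genes of 20, at -1.05 and -0.60. ONECUT1 lost its call without high gain-low intake steers 3 and 4 or low gain-low intake steers 1 and 2 (p up to 0.103), and PROX1 without high gain-low intake steers 1 and 4 or low gain-low intake steers 2, 3 and 4 (p up to 0.0746).

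In drug metabolism, 2 of 32 phase II genes and 2 of 24 genes of the cytochrome P450 list, which includes their regulator AHR, were called lower, and 0 higher. These were 6.25% and 8.33%, beside 3.66% over all transcript clusters. NAT1, an arylamine acetyltransferase, read 10.13, 10.34, 9.55 and 10.04 in high gain-low intake steers, against 10.35, 11.02, 10.87 and 10.70 in low gain-low intake steers, without overlap. Its call held without each steer. UGT2B10, a glucuronosyltransferase, read 9.48, 9.70, 6.19 and 10.30 in high gain-low intake steers, against 11.42, 10.37, 12.15 and 10.52 in low gain-low intake steers. It belongs to a family of near-identical copies whose probes may share signal, high gain-low intake steer 3 was far below the others, and its call was lost without high gain-low intake steer 3 or low gain-low intake steer 3 (p up to 0.108). FETUB, a liver-secreted protease inhibitor, had a difference of -1.85, the anion carrier SLC17A1 of -1.39, the phospholipase PLA2G2D1 of -2.24 and the transglutaminase TGM2 of -1.37. FETUB lost its call without high gain-low intake steers 3 and 4 or low gain-low intake steers 2 and 3 (p up to 0.0815). SLC17A1 lost its own without high gain-low intake steers 1 and 4 or low gain-low intake steers 2 and 4 (p up to 0.0586), PLA2G2D1 without high gain-low intake steers 2 and 3 or low gain-low intake steers 1 and 2 (p up to 0.126) and TGM2 without low gain-low intake steer 3 (p up to 0.0635). Complement and coagulation genes had 1 of 38 called, protein S (PROS1, -0.74). That share of 2.63% is below the 3.66% over all transcript clusters. Below 0 lay 36 of the 38 differences, beside 14079 of 26773 over all transcript clusters. The median of the list was -0.38. The median was -0.20 with the block and -0.25 without high gain-low intake steer 3, and the 8-array block called 8 lower. PROS1 lost its call without high gain-low intake steers 2, 3 and 4 or low gain-low intake steers 1, 2 and 3 (p up to 0.173). The number called lower was 7 without high gain-low intake steer 1, 2 without high gain-low intake steer 2 and 3 without low gain-low intake steer 4, and it was 0 without each of the other 5 steers.

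Genes of cell division were split. Of 67, 3 were called higher and 2 lower (7.46%, beside 3.66% over all transcript clusters). Their median difference was 0.09, or 0.17 with the block. CCNE2, a cyclin of entry into DNA replication, was 1.17 ± 0.35 (SE) higher and the kinase MELK 0.43 ± 0.16. NCAPG, a condensin subunit, read 6.12, 6.25, 6.49 and 5.97 in high gain-low intake steers, against 5.83, 5.76, 5.82 and 5.67 in low gain-low intake steers, without overlap. Both NCAPG and MELK were dim, at percentiles 18.3 and 17.3 of mean signal over all transcript clusters. The lower genes were SKA2, of the kinetochore (-0.58), and CCND1, cyclin D1 (-0.74), which was named after its value was seen and lost its call with the block, at an unadjusted limma p of 0.0608. MELK lost its call without high gain-low intake steer 1 or low gain-low intake steer 3 (p up to 0.0555), and SKA2 without high gain-low intake steers 2 and 4 or low gain-low intake steer 3 (p up to 0.0716).

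Of the genes that the study checked by quantitative PCR, 11 had a transcript cluster of their own, and 3 were called higher (IGFBP1, NCAPG and DNAJB2) and 1 lower (NAT1). The study chose them on these samples, so the count is not independent evidence. DNAJB2 read 8.80, 8.45, 8.78 and 9.18 in high gain-low intake steers, against 8.71, 8.33, 8.31 and 8.17 in low gain-low intake steers, and lost its call without high gain-low intake steers 1, 3 and 4 or low gain-low intake steers 2, 3 and 4 (p up to 0.148) as well as with the 8-array block. The kinase PTK2B, at 0.47 ± 0.22, and the acyltransferase AGPAT3, at -0.47 ± 0.22 (SE), lay just outside the threshold with unadjusted limma p-values of 0.0507 and 0.0509, and with column position as a block PTK2B was called. PPP1CA, SMAD6, PLK3, TIGAR and FABP3 had differences of -0.31, -0.24, 0.21, -0.17 and -0.05. DIO1, the deiodinase that activates thyroid hormone in liver, read 17.02, 16.92, 15.76 and 16.57 in high gain-low intake steers, against 15.25, 15.39, 16.22 and 15.28 in low gain-low intake steers. It was 1.03 ± 0.45 (SE) higher and lost its call without high gain-low intake steers 1, 2 and 4 or low gain-low intake steers 1, 2 and 4 (p up to 0.0965).

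The same contrast of gain was made at high intake. There, high gain-high intake steers were set against low gain-high intake steers, 4 of each, in the same fit. IGFBP1 had a difference of -0.91 ± 0.77 (SE) at high intake, with 13.47 ± 0.69 in high gain-high intake and 14.38 ± 1.31 in low gain-high intake steers (SD, n = 4 each), and EGR1 one of -0.69. Of the 15 higher and 15 lower genes with the smallest p at low intake, SPTSSB was the 1 called with the same sign at high intake too, at -0.99 ± 0.27 at low and -0.98 ± 0.27 at high intake. Of the 15 higher genes 10 and of the 15 lower genes 13 kept their sign at high intake, beside 42.8% and 61.4% of all transcript clusters that were higher and lower at low intake. The interaction of gain and intake was called in 7 of the 15 and 10 of the 15, but these genes were chosen on one side of it. Over all transcript clusters the gain contrast at high intake was called in 678 (2.53%), 185 higher (0.691%) and 493 lower (1.84%), and the interaction in 753 (2.81%). Both shares lay below the 5% that evenly spread p-values would give. In limma 0 interactions passed an adjusted p of 0.05.

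**Figure D5:**
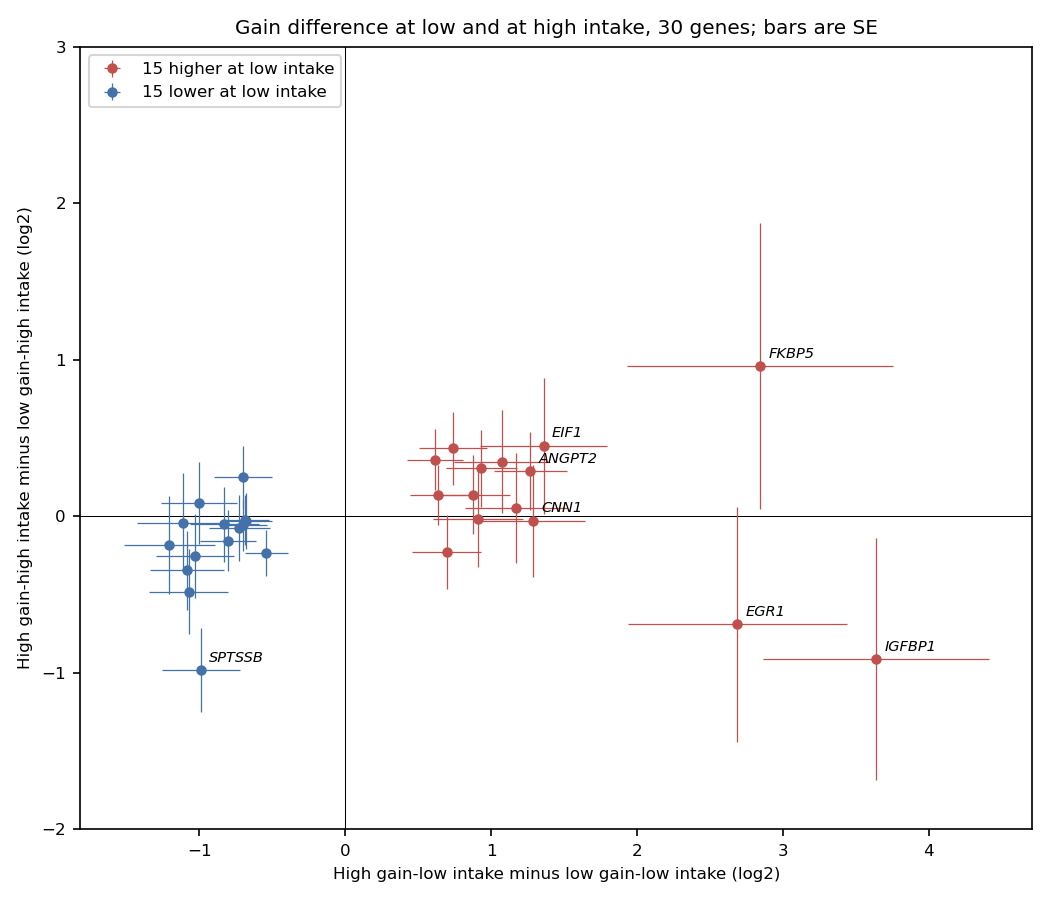
Gain difference in log2 signal at low intake (x axis, high gain-low intake minus low gain-low intake) and at high intake (y axis, high gain-high intake minus low gain-high intake) for the 15 higher (red) and 15 lower (blue) genes with the smallest p at low intake, with SE bars. IGFBP1 and EGR1 lie below 0 at high intake (-0.91 and -0.69), and SPTSSB lies at -0.98.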

How the data were processed

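Liver RNA of 16 steers, 1 array per steer, was measured on Affymetrix Bovine Gene 1.1 ST arrays. The authors deposited log2 signals. Expression Console, Affymetrix software, had corrected them for GC count, applied Signal Space Transformation and summarised them by Robust Multichip Analysis. Transcriptome Analysis Console is also named in the submitters' processing notes. For their versions, and for the build, nothing is given in the sources used here. Of 26773 transcript clusters, 18790 were paired with 1 gene symbol by the platform annotation, 385 with several and 7598 with none. For a symbol with several clusters the one with the highest mean over the 16 arrays was used.

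From the values as deposited, limma 3.58.1 (R 4.3.3) was fitted with 1 mean for each of 4 groups over 16 arrays, and the high gain-low intake minus low gain-low intake contrast was taken with Benjamini-Hochberg adjustment over all transcript clusters. Genes were named by rule. Among genes whose higher group mean was at or above 7.34, the median level, these were the 15 higher and 15 lower with the smallest p and the 5 higher and 5 lower with the largest difference among called genes. At any level they were up to 4 called members of each list, up to 2 genes with the highest signals in some lists, the quantitative PCR genes and 2 markers of each cell type. The members and the gene lists were chosen with earlier results of these data known. Lists were described by counts and medians, with no test. Each column of the table is headed by the identifier of its sample, which gave its label. Steers are separate animals, numbered within a group in accession order, so p-values rest on a spread between animals. In the main fit that spread is pooled over all 16 arrays in 4 groups and moderated by limma. Without the block it also takes in the split by column position. The alternatives were the 8 low intake arrays alone, column position as a block (16 or 8 arrays), quantile normalization, median subtraction, the ordinary contrast, an intensity trend, dim clusters left out, and each low intake steer left out. The block fit without each steer was added after the data were seen. The fit was tested on simulated data. Having 4 arrays in each group limits precision.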

Additional observations from a re-analysis of the deposited data

Results flagged for a closer look

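For the named genes, 270 groups of 4 steers were searched for a steer whose gap to its nearest neighbour took up more of the group's range than Dixon's 95% critical value, and 13 were found. Chance marks about 1 in 20 groups, so that this number is close to what it gives. Among the high gain-low intake steers, steer 3 stood apart for MNS1 (9.13, above the others), SLC25A11 (10.63, above) and PYGL (17.91, below). Steer 2 stood apart for FNIP1 (11.47, above) and TIGAR (7.59, above), steer 4 for OGN (10.58, above) and CD3E (8.45, below), and steer 1 for KYNU (12.96, above). Among the low gain-low intake steers, steer 4 stood apart for LOC509118 (8.80, above), CD5L (15.37, below) and AGPAT3 (10.82, below), steer 2 for PSMD5 (9.86, above) and steer 3 for DIO1 (16.22, above). Low gain-low intake steer 4 was the only one of its group in the last 8 columns of the table.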

How the results depend on the processing

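The number of called transcript clusters (980, with 457 higher and 523 lower) was 1494 and 1981 with column position as a block over 16 and over 8 arrays, where 970 and 1204 were higher. It was 493 (149 higher, 344 lower) with dim clusters left out, where fewer were tested. Without each low intake steer in turn it ranged from 764 to 1459, with 425 to 541 higher and 339 to 1034 lower. The highest count came without low gain-low intake steer 4 (425 higher, 1034 lower), then high gain-low intake steer 1 (802 lower), and the lowest without low gain-low intake steer 2. With the block and without each steer, added after the data were seen, it ranged from 1113 to 1748, with 559 to 1153 higher and 395 to 599 lower. Apart from the extremes, it was 1526 without low gain-low intake steer 1 (958 higher), and 1594 and 1519 without high gain-low intake steers 3 and 4 (995 and 975 higher). The higher count was 832 without high gain-low intake steer 2, and 865 and 928 without low gain-low intake steers 2 and 3. The causes were not tested. The other settings gave 970 to 1178. Of 98 named genes called, 43 kept the call without each steer in turn, and 61 kept it under every other planned setting that tested them. In the added fits, 1 transcript cluster without a gene symbol passed the adjustment in limma, at an adjusted p of 0.00124 with the block and without low gain-low intake steer 3. No called gene changed direction. ALB, not called at 0.11, was -0.32 with the block and without high gain-low intake steer 4. No paired analysis was possible because the labels give no replicate number or harvest day shared between the groups.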

Other observations

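Of the 15 lower genes with the smallest p, 3 were olfactory receptor genes that lie near each other in the ARS-UCD2.0 assembly: OR4X16, OR4C12 and the pseudogene OR4C12DP. Olfactory receptors serve smell in the nose and have no settled role in liver. OR4C12 read 7.12, 6.67, 6.45 and 6.61 in high gain-low intake steers, against 8.27, 7.54, 8.24 and 7.62 in low gain-low intake steers. OR4X16 read 9.82, 9.90, 9.67 and 9.48 in high gain-low intake steers, against 11.32, 10.74, 10.45 and 10.65 in low gain-low intake steers. The groups did not overlap in either gene. OR4C12 and OR4C12DP reached the limit on level through the low gain-low intake mean alone. Among the 15 genes on each side of OR4C12, 16 genes including OR4C12 had a value, 14 of them were lower in high gain-low intake steers and 5 were called lower. Over all transcript clusters 14079 of 26773 were lower and 523 (1.95%) were called lower. The 5 include the 3 genes named above for their small p, so the counts are not independent of that choice. The other called ones were OR4X2 (-0.78) and OR4X17 (-0.71), and the nearby OR4C3 and OR4C10 differed by -0.01 and -0.13. At high intake the gain difference was -0.18 for OR4C12, -0.48 for OR4X16, 0.46 for OR4X2 and 0.04 for OR4X17. This stretch was chosen after the values were seen and has no test. Its genes are close copies, and whether their probes share signal was not tested.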
